A study of Mus musculus with 6 samples.

Results

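The EGF receptor family and its ligands were examined in the esophagus of mice labelled Pax9 knockout against wild type mice. The set held 10 of the 28146 gene names on the array, the receptors Egfr, Erbb2 and Erbb3 and the ligands Areg, Hbegf, Epgn, Ereg, Tgfa, Btc and Egf. Its members were all non-control probes that carry one of these gene names in the scanner files, which gave 23 of the 41174 probes on the array. Of these, 22 were tested, and each of the 10 genes had at least 1 tested probe. RNA given as esophageal epithelium of adult C57BL/6J mice was hybridised to 6 two-colour Agilent arrays. The 3 arrays labelled knockout carried RNA of K5Cre;Pax9 loxp/loxp mice, in which a keratin 5 driver expresses Cre in the basal cells of stratified epithelia, and the other 3 carried RNA of mice labelled wild type. The esophagus RNA was labelled with Cy5, and every array also carried a Cy3-labelled reference pool made from 11 mouse cell lines. Dyes were not swapped. The comparison asks how expression in the esophagus differs when Pax9, a paired-box transcription factor, is deleted from these cells.

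The receptors of this family are transmembrane tyrosine kinases that pair on ligand binding and feed the RAS-ERK and PI3K-AKT cascades. Their ligands are made as membrane-anchored precursors, which metalloproteases cut free, and they act on the producing cell or its neighbours. In stratified epithelia such as skin and esophagus the pathway is best known for driving basal cell proliferation, migration and wound repair.

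The deleted gene gave no lower signal under the knockout label. The Pax9 probe A_52_P593379 had log2 ratios of esophagus over reference of 6.81, 6.78 and 6.72 on the arrays labelled knockout, against 6.28, 6.13 and 5.70 on those labelled wild type. All values of the arrays labelled knockout lay above all values of those labelled wild type, with a difference of 0.73 (SE 0.18, adjusted p = 0.071, limma). Which exons the loxP sites flank is not stated, and a probe beyond the deleted stretch would be no check of the labels. Arrays are therefore named by their labels, on which the sign of every difference depends.

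On the arrays labelled knockout 71.8% to 76.1% of probes had a Cy5 signal well above background, against 67.3% to 77.3% on those labelled wild type, and no spot was saturated. The median Cy5 signal was 97.5, 133 and 124 on the arrays labelled knockout, against 56.0, 72.7 and 159 on those labelled wild type. Cy5 and Cy3 signals printed per array, and their sums, are not scaled for such differences in brightness. Differences in a channel alone are quantile normalized. All arrays labelled knockout lay on one slide and all arrays labelled wild type on another, so slide and group cannot be told apart. The Cy3 channel held the same RNA on every array, yet taken alone it passed the threshold between the slides for 16696 of 30497 tested probes (54.7%) and for 13 of the 22 member probes. The 5 basal and 5 suprabasal squamous markers were well above background on all arrays, and none passed the threshold. Of the 5 skeletal muscle markers 1 was higher (Myh2), and their summed Cy5 signal was 81539 to 877561 on the arrays labelled knockout, against 14342 to 157230 on those labelled wild type. Of 3 tested salivary and mucous gland markers 1 was lower (Aqp5), with a Cy5 signal of 142 to 175 on the arrays labelled knockout, against 827 to 1282 on those labelled wild type. Muc5b differed by 0.39 and Bhlha15 by -0.23, neither past the threshold, and Prol1 and Smgc were not tested. The list's summed signal, Aqp5 included, was 359 to 446 on the arrays labelled knockout, against 955 to 1525 on those labelled wild type. None of the smooth muscle, fibroblast, endothelial or immune markers passed. The part of the muscle and Aqp5 signals in the results below was not tested, and in such tissue RNA fewer cells of a type and less RNA per cell cannot be told apart.

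Of the 22 tested member probes 1 passed an adjusted p of 0.05 as higher on the arrays labelled knockout and 0 as lower. Of all 30497 tested probes 4.17% passed, 2.39% as higher and 1.78% as lower, so that 57.3% of the calls were higher (47.1% in Cy5 alone). The member probe that passed was one named for Ereg, placed on the strand opposite to the other Ereg probe. The 2 groups did not overlap for 5 member probes (22.7%), with the knockout label higher in 2 and lower in 3. Of all tested probes 30.5% did not overlap, 15.6% higher and 14.9% lower. Of the tested member probes 2 (Erbb3 A_52_P133607 and Tgfa A_52_P555423) passed the filter on dim probes through the arrays labelled wild type alone and 1 (Egfr A_52_P5855) through those labelled knockout alone. An unadjusted p under 0.05 was reached by 6 member probes, against 23.3% of all tested probes. The median difference over the member probes was -0.10 on the log2 scale, against -0.0027 over all tested probes. Beyond the single Ereg probe, the counts for the family were thus close to those of the array as a whole.

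**Figure D1:**
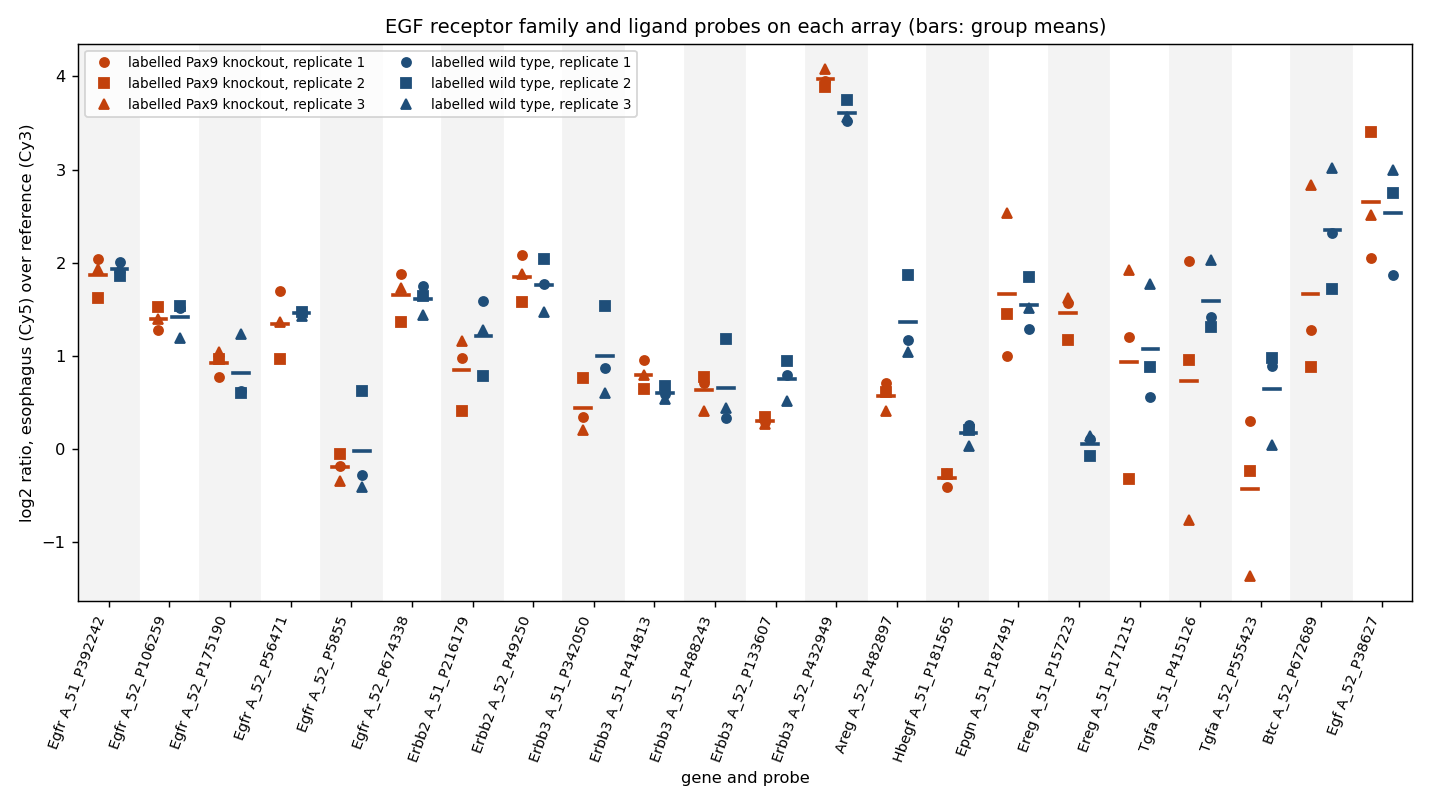
The vertical axis is the log2 ratio of esophagus (Cy5) over reference (Cy3) and each column is 1 tested probe, with the 3 arrays labelled knockout in orange left of the 3 labelled wild type in blue and a bar at each group mean. The 2 groups lie farthest apart without overlap for Ereg A_51_P157223, at 1.17 to 1.62 on arrays labelled knockout against -0.07 to 0.14 on those labelled wild type. The other Ereg probe, A_51_P171215, and the Tgfa, Epgn and Btc probes spread widely within the knockout group.

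4 probe sequences carry the findings on Erbb3 and Ereg, since they show where probes of the same gene share sequence or lie apart. They are the probe sequences of the scanner files, 60 bases each, with positions on mouse build mm9. Capitals mark the 40-base stretch that 2 Erbb3 probes share. The first Erbb3 probe lies at chr10:128009195-128009254, the second is split over chr10:128009215-128009503 and the last at chr10:128022097-128022156, all on the minus strand like the gene. The Ereg probe lies at chr5:91480914-91480973 on the minus strand.
Erbb3 A_51_P342050: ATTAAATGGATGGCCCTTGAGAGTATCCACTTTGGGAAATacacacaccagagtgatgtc
Erbb3 A_51_P488243: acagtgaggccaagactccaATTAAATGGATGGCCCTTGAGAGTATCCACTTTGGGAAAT
Erbb3 A_52_P133607: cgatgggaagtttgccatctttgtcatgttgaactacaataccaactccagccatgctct
Ereg A_51_P157223: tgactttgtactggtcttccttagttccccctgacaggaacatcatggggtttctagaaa

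Egfr, a receptor for each ligand of the set, gave overlapping values in the groups with every probe. Its probe A_51_P392242, printed at 10 spots per array, had log2 ratios of 2.04, 1.62 and 1.94 on the arrays labelled knockout, against 2.01, 1.86 and 1.95 on those labelled wild type. The groups overlapped, and the difference was -0.07 (SE 0.16, 95% interval -0.45 to 0.31, adjusted p = 0.82). Probe A_52_P106259, also at 10 spots, had 1.27, 1.53 and 1.40 on the arrays labelled knockout, against 1.52, 1.54 and 1.19 on those labelled wild type. Here too the groups overlapped, and the difference was -0.01 (SE 0.16, 95% interval -0.39 to 0.37, adjusted p = 0.97). Over all 6 Egfr probes, which span chr11:16655638-16817689, the differences ran between -0.17 and 0.11 and the lowest adjusted p was 0.75. The farthest 5′ of them, A_52_P5855, was well above background on 2 of the 3 arrays labelled wild type and had the widest interval, -0.83 to 0.49. Differences inside these intervals are compatible with the values of 3 arrays a group, and the intervals are no limit of detection.

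Erbb2, which has no known ligand of its own and serves as the partner of the other receptors, had 2 probes, and neither passed. Probe A_52_P49250, at 10 spots, had log2 ratios of 2.09, 1.58 and 1.87 on the arrays labelled knockout, against 1.77, 2.04 and 1.47 on those labelled wild type. The groups overlapped, with a difference of 0.09 (SE 0.21, 95% interval -0.40 to 0.58, adjusted p = 0.83). The dimmer probe A_51_P216179 had 0.98, 0.41 and 1.16 on the arrays labelled knockout, against 1.60, 0.79 and 1.27 on those labelled wild type. The groups again overlapped, and the difference was -0.37 (SE 0.27, 95% interval -1.01 to 0.28, adjusted p = 0.46). The reference signal of that probe was 29.3 to 38.0 on the slide labelled knockout, against 75.2 to 82.7 on the slide labelled wild type.

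Erbb3, a neuregulin receptor with little kinase activity of its own, had 5 probes, none of which passed, with differences from -0.56 to 0.36. The 3′-most probe, A_52_P432949, had log2 ratios of 3.95, 3.89 and 4.08 on the arrays labelled knockout, against 3.52, 3.75 and 3.56 on those labelled wild type. The groups did not overlap, and the difference of 0.36 (SE 0.14, adjusted p = 0.19) missed the threshold. The 5′-most probe, A_52_P133607, had 0.29, 0.35 and 0.27 on the arrays labelled knockout, against 0.80, 0.95 and 0.51 on those labelled wild type. These groups did not overlap either, but in the other direction, with a difference of -0.45 (SE 0.16, adjusted p = 0.15). That probe was dim. It was tested only through the arrays labelled wild type, where its Cy5 signal was higher, so its p-values are no support for a difference. Its reference signal was well above background on 3 of 6 arrays, so its difference is poorly measured. Its background-subtracted Cy5 signal was 9.75, 21.3 and 16.7 on the arrays labelled knockout, against 34.1, 44.2 and 47.7 on those labelled wild type, and 2 of the 3 arrays labelled knockout were well above background. Its Cy3 signal was 1.78, 1.62 and 2.60 on the arrays labelled knockout, against 24.2, 23.3 and 30.4 on those labelled wild type. In the deposited log ratios the sign of its difference turned, to 1.60 (adjusted p = 0.14).

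The values of the overlapping Erbb3 probes printed above follow. A_51_P342050 had log2 ratios of 0.35, 0.76 and 0.21 on the arrays labelled knockout, against 0.87, 1.53 and 0.61 on those labelled wild type, with a difference of -0.56 (SE 0.27, adjusted p = 0.26). A_51_P488243 had 0.71, 0.78 and 0.41 on the arrays labelled knockout, against 0.33, 1.18 and 0.44 on those labelled wild type, with a difference of -0.02 (SE 0.25, adjusted p = 0.97). Both sets of values overlapped between the groups although the probes share 40 of 60 bases. The first minus the second, chosen after values were seen, was -0.36, -0.01 and -0.20 on the arrays labelled knockout, against 0.54, 0.35 and 0.16 on those labelled wild type. An exact permutation test of it gave p = 0.1, the lowest that 3 against 3 arrays allow, so it cannot decide. The fifth probe, A_51_P414813, differed by 0.20 (SE 0.15, adjusted p = 0.45).

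Ereg encodes epiregulin, a ligand of Egfr and Erbb4 made by many epithelia. Its probe A_51_P157223 had log2 ratios of 1.57, 1.17 and 1.62 on the arrays labelled knockout, against 0.11, -0.07 and 0.14 on those labelled wild type. Every array labelled knockout lay above every array labelled wild type, with group means of 1.46 ± 0.25 and 0.06 ± 0.11 (SD, n = 3 each). It rose by 1.40 (SE 0.17, 95% interval 0.99 to 1.80, adjusted p = 0.013, limma). In single channels, its background-subtracted Cy5 signal was 520, 415 and 626 on the arrays labelled knockout, against 71.4, 80.0 and 215 on those labelled wild type. The Cy3 signal overlapped, at 372, 343 and 380 on the arrays labelled knockout, against 351, 342 and 330 on those labelled wild type. Cy5 alone, quantile normalized, gave a difference of 1.42 (adjusted p = 0.0064), and Cy3 alone one of 0.25 (adjusted p = 0.046), so the higher ratio lay in the esophagus channel. The difference stayed between 1.25 and 1.54 under the 14 alternatives run. It missed the threshold under median centring (adjusted p = 0.056) and without knockout replicate 1 (0.051), knockout replicate 3 (0.080), wild type replicate 1 (0.064) or wild type replicate 2 (0.055).

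The other Ereg probe did not pass the threshold. A_51_P171215, at chr5:91521659-91521720 on the plus strand, had log2 ratios of 1.20, -0.32 and 1.93 on the arrays labelled knockout, against 0.56, 0.88 and 1.78 on those labelled wild type. The groups overlapped fully, and the difference was -0.13 (SE 0.58, 95% interval -1.50 to 1.23, adjusted p = 0.91). The first probe minus the second was 0.37, 1.49 and -0.30 on the arrays labelled knockout, against -0.45, -0.95 and -1.64 on those labelled wild type. The groups did not overlap in this difference between probes, which was chosen after its values were seen. Its exact permutation test gave p = 0.1, the lowest that 3 against 3 arrays allow, so it cannot decide.

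The annotation of the Ereg probe that rose is uncertain. The scanner files name it Ereg through a cDNA clone, and the second probe through the RefSeq transcript. It lies 16.8 kb from the Epgn probe, between Epgn and the second Ereg probe, and it is placed on the minus strand, while the second Ereg probe is on the plus strand. Ereg was left out of a check of probe strands. For the 7 of 7 other members that have a promoter entry in the RefSeq table of GRCm38.p6, the strand given for probes matched that of the gene. In that table the long noncoding RNA gene Gm19610 lies between Epgn and Ereg. Whether the probe falls in it was not tested, since the builds differ. The rise is therefore that of RNA read by this probe and not shown to be that of the epiregulin transcript.

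**Figure D2:**
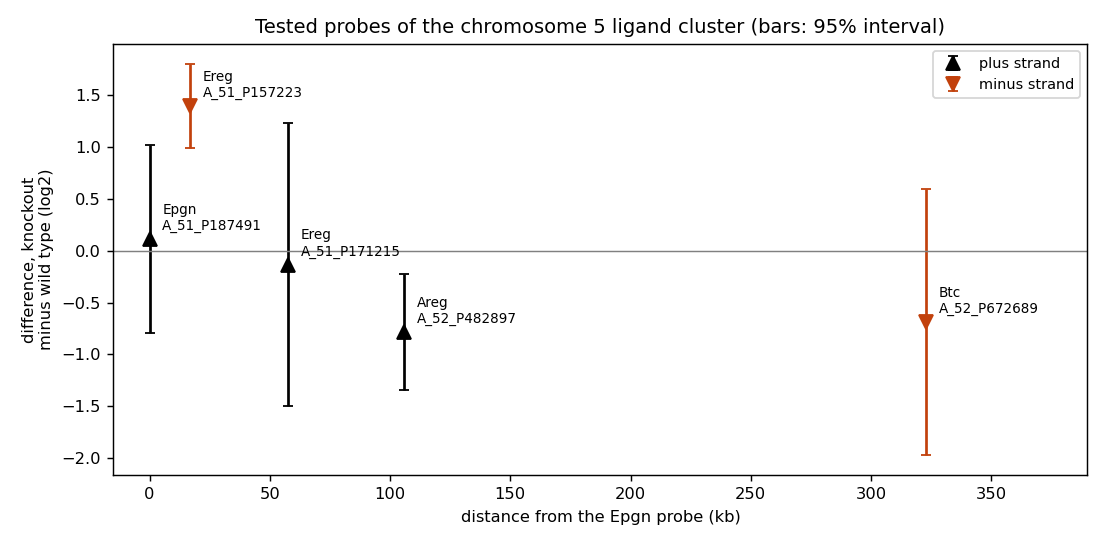
The vertical axis is the difference of arrays labelled knockout minus wild type (log2) with its 95% interval, and the horizontal axis the distance in kb from the Epgn probe along chromosome 5, for the tested probes of Epgn, Ereg, Areg and Btc. Triangles up are plus strand and triangles down minus strand, and the minus strand Ereg probe at 16.8 kb, with a difference of 1.40, stands above plus strand neighbours at 0.11 (Epgn), -0.13 (Ereg) and -0.79 (Areg).

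No other tested probe of the chromosome 5 ligand cluster passed the threshold. Epgn encodes epigen, a ligand of Egfr, and its probe A_51_P187491 had log2 ratios of 1.00, 1.45 and 2.53 on the arrays labelled knockout, against 1.29, 1.85 and 1.51 on those labelled wild type. The groups overlapped, knockout replicate 3 was the highest of all arrays, and the difference was 0.11 (SE 0.38, adjusted p = 0.89). Areg encodes amphiregulin, a ligand of Egfr known for autocrine growth of keratinocytes. Its probe A_52_P482897 had 0.71, 0.61 and 0.41 on the arrays labelled knockout, against 1.17, 1.87 and 1.05 on those labelled wild type. All arrays labelled knockout lay below all those labelled wild type, but the difference of -0.79 (SE 0.24, 95% interval -1.35 to -0.22, adjusted p = 0.11) missed the threshold. Cy5 signals of Areg, not scaled between arrays, overlapped, at 360, 369 and 326 on the arrays labelled knockout, against 217, 432 and 565 on those labelled wild type. The Cy3 channel alone differed by 0.32 (adjusted p = 0.013) between the slides, and Cy5 alone gave -0.49 (adjusted p = 0.18).

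Btc encodes betacellulin, a ligand of Egfr and Erbb4. Its probe A_52_P672689 had log2 ratios of 1.28, 0.88 and 2.84 on the arrays labelled knockout, against 2.32, 1.72 and 3.02 on those labelled wild type. The groups overlapped through the third replicate of the knockout group, and the difference was -0.69 (SE 0.54, 95% interval -1.97 to 0.59, adjusted p = 0.48). The other Btc probe, A_51_P138429, was not well above background on any of the 6 arrays in either channel, and it was not tested.

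Hbegf encodes heparin-binding EGF-like growth factor, a ligand of Egfr and Erbb4 known from wound healing. Its probe A_51_P181565 on chromosome 18 had log2 ratios of -0.41, -0.26 and -0.26 on the arrays labelled knockout, against 0.26, 0.21 and 0.04 on those labelled wild type. All arrays labelled knockout lay below all those labelled wild type. The difference was -0.48 (SE 0.14, 95% interval -0.81 to -0.15), with an adjusted p of 0.10 that missed the threshold (0.024 to 0.67 over the alternatives). Cy5 alone, quantile normalized, gave -0.66 with an adjusted p of 0.024, a setting in which 27.1% of all tested probes passed.

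Tgfa, which encodes transforming growth factor alpha, an Egfr ligand of epithelial cells, had its lowest values on knockout replicate 3. Probe A_51_P415126, at 10 spots, had log2 ratios of 2.01, 0.96 and -0.76 on the arrays labelled knockout, against 1.42, 1.32 and 2.03 on those labelled wild type. Knockout replicate 3 lay below all others and knockout replicate 2 below all arrays labelled wild type. Knockout replicate 1 lay within the wild type range, and the difference was -0.85 (SE 0.64, adjusted p = 0.46). The Cy5 signal was 353, 202 and 24.0 on the arrays labelled knockout, against 145, 161 and 562 on those labelled wild type. Between spots of the same array the SD was 0.10 to 0.25, and between the arrays labelled knockout it was 1.40. Without knockout replicate 3 the difference was -0.10.

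The second Tgfa probe was lowest on the same array, and it was tested through the arrays labelled wild type. A_52_P555423 had log2 ratios of 0.30, -0.23 and -1.36 on the arrays labelled knockout, against 0.90, 0.98 and 0.05 on those labelled wild type. Knockout replicate 2 again lay below all arrays labelled wild type. The groups overlapped through knockout replicate 1, and the difference was -1.07 (SE 0.45, 95% interval -2.13 to -0.02, adjusted p = 0.21). Fitted with the replicate block, its adjusted p was 0.032, and in Cy5 alone the difference was -1.34 (adjusted p = 0.032). These settings called 7.39% and 27.1% of all tested probes. The probe entered testing only through the group where it was higher, so these p-values are no support for a difference. Cy5 was 83.4, 66.2 and 5.85 on the arrays labelled knockout, well above background on 2 of 3, against 138, 174 and 189 on those labelled wild type. Cy3 was 131, 167 and 167 on the arrays labelled knockout, against 332, 318 and 319 on those labelled wild type, and differed by -0.66 between the slides (adjusted p = 8.9e-05). Without knockout replicate 3 the ratio difference was -0.61. The same replicate 3 was the highest of the knockout group for Epgn, Btc and both Ereg probes, among others.

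Egf itself, the founding ligand, was also carried by a 10-spot probe. A_52_P38627 on chromosome 3 had log2 ratios of 2.05, 3.40 and 2.51 on the arrays labelled knockout, against 1.86, 2.75 and 3.00 on those labelled wild type. The groups overlapped, and the difference was 0.12 (SE 0.41, 95% interval -0.85 to 1.09, adjusted p = 0.89). Its spots within an array varied with an SD of 0.088 to 0.22, against SDs of 0.69 and 0.59 between arrays labelled knockout and wild type.

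**Figure D3:**
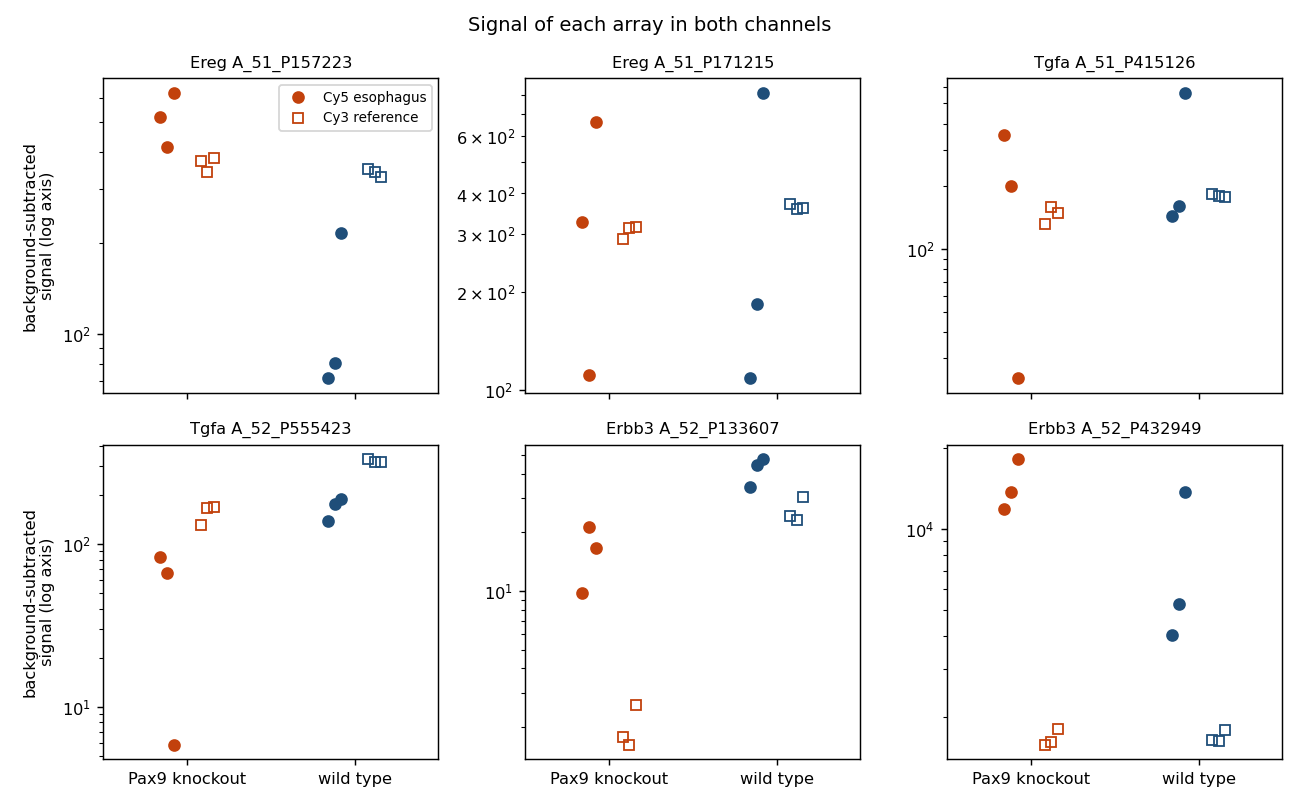
Each panel shows 1 probe, with background-subtracted signal on a log axis in the esophagus channel (Cy5, filled circles) and the reference channel (Cy3, open squares) for the 3 arrays labelled knockout (orange, left) and the 3 labelled wild type (blue, right). Signals are not scaled between arrays. Ereg A_51_P157223 has overlapping reference signals and higher esophagus signals on arrays labelled knockout (415 to 626, against 71.4 to 215), whereas the reference signals of Tgfa A_52_P555423 and Erbb3 A_52_P133607 differ between the slides.

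**Figure D4:**
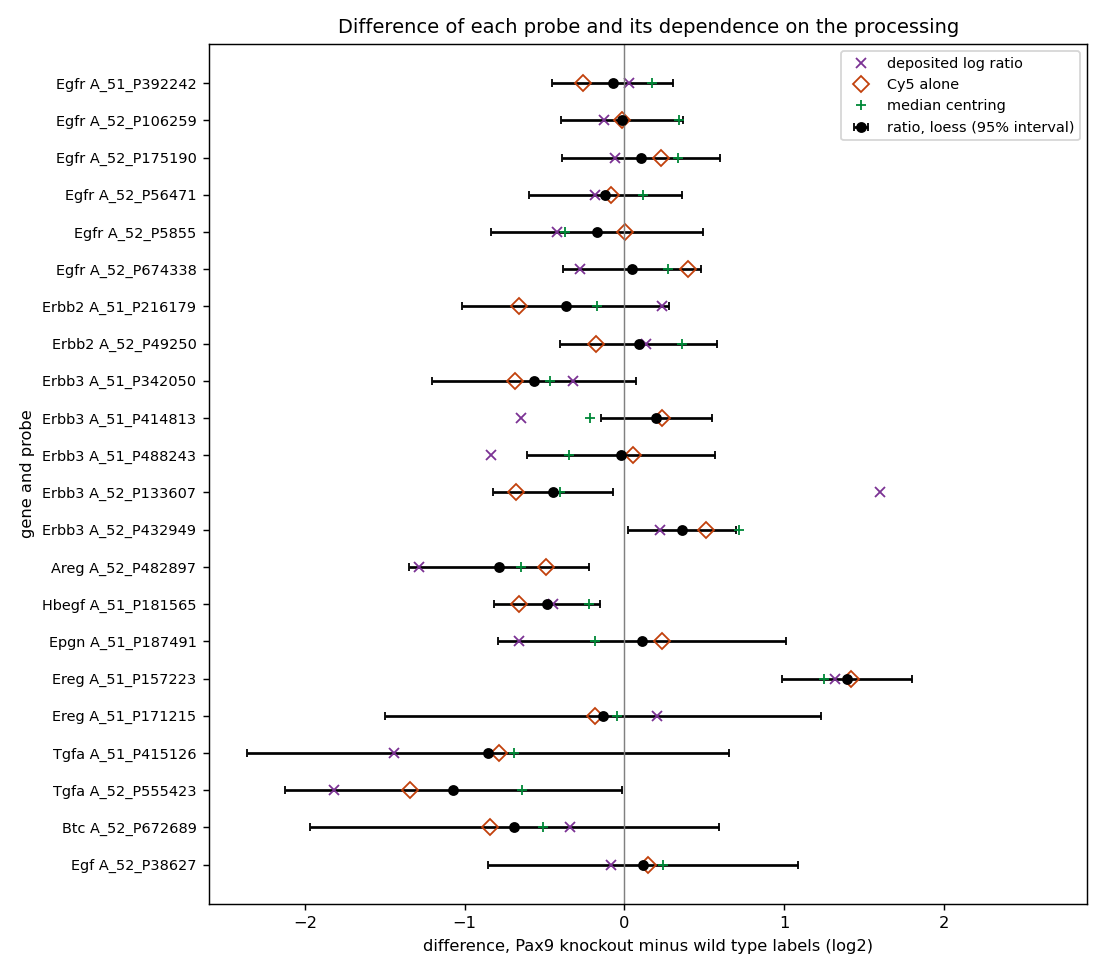
The horizontal axis is the difference of arrays labelled knockout minus wild type (log2) for each of the 22 tested probes, with the loess-normalized ratio and its 95% interval in black and 3 other ways of processing as coloured marks. Ereg A_51_P157223 keeps a difference of 1.25 to 1.42 in all 4 of these ways, while Erbb3 A_52_P133607 moves to 1.60 in the deposited log ratio.

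The rest of the pathway was read from 5 lists, in which a gene stands by its brightest tested probe. Of 63 listed genes 61 were on the array and 59 were tested. Of the tested genes 0 were higher and 3 lower (Ptprk, Fos and Spry4), against 2.83% higher and 2% lower, or 4.83% in all, of the 20814 tested genes of the whole array. With the replicate block 3 were higher and 6 lower, in a fit that called 7.39% of all tested probes, 58.9% of these as higher. The groups did not overlap for 21 of the 59, against 32.2% of all tested genes, and the median difference was -0.05.

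Among other receptors and ligands, Erbb4, the fourth receptor, had 3 probes, of which 1 was well above background on any array, and it was not tested. The neuregulin Nrg3 had 2 probes, none of them well above background. Nrg1 and Nrg4, which encode neuregulins for Erbb3 and Erbb4, were tested and differed by -0.32 (SE 0.19, adjusted p = 0.34) and -1.02 (SE 0.25, adjusted p = 0.068). The Cy3 signal of Nrg4 was 49.1 to 58.4 on the arrays labelled knockout, against 156 to 167 on those labelled wild type.

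Of the 6 ligand release genes, which encode proteases that cut ligand precursors, their partners and an inhibitor, 0 passed the threshold in either direction. Their differences ran from -0.97 to -0.11, with a median of -0.58, against a median of -0.0027 over all tested probes. The smallest were those of Furin, -0.11 (SE 0.15, adjusted p = 0.70), and Rhbdf1, -0.23 (SE 0.20, adjusted p = 0.53). In Cy5 alone Furin differed by 0.30, the other direction, and its Cy3 channel alone differed by 0.40 between the slides. The rest of the list ran from -0.996 to -0.12 in Cy5 alone. Whether the list as a whole differs from other genes was not tested. Rhbdf2 encodes iRhom2, which matures the protease ADAM17 and is mutated in the human syndrome tylosis with oesophageal cancer. Its log2 ratios were 0.92, 1.22 and 0.87 on the arrays labelled knockout, against 2.19, 2.15 and 1.59 on those labelled wild type. The groups did not overlap, and the difference of -0.97 (SE 0.21) had an adjusted p of 0.051. Over the alternatives the adjusted p was 0.028 to 0.20. The value of 0.028 came from the replicate block, a fit that called 7.39% of all tested probes. With the deposited log ratios it was 0.088 and with median centring 0.15. The gene's other probe differed by -0.71 (adjusted p = 0.099). Adam10, a protease that releases Egf and Btc, differed by -0.74 (SE 0.18, adjusted p = 0.066), without overlap of the groups.

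Of 13 genes for receptor inhibitors and turnover 0 were higher and 1 lower. Ptprk encodes a receptor phosphatase that removes phosphate from EGFR in human keratinocytes. Its log2 ratios were -1.82, -1.82 and -1.94 on the arrays labelled knockout, against -0.69, -0.76 and -0.92 on those labelled wild type. The groups stood clearly apart, and it fell by 1.07 (SE 0.14, adjusted p = 0.016). The gene's 3 other tested probes differed by -0.57, -0.43 and 0.64, and none passed, so the probes disagree in direction. Leaving out wild type replicate 3 or knockout replicate 2 kept the Ptprk call, and leaving out any of the other 4 arrays ended it (adjusted p 0.051 to 0.099). Cbl, a ubiquitin ligase that sends active Egfr for degradation, differed by -0.59 (SE 0.14, adjusted p = 0.066), while its other probe differed by 0.25.

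Of 19 adaptor and kinase cascade genes 0 passed in either direction, with a median difference of 0.20. Plcg1, which encodes a phospholipase recruited by active Egfr, differed by 0.98 (SE 0.23, adjusted p = 0.060), and by its other probe by 0.04. With the replicate block the first probe had an adjusted p of 0.022, and Cy5 alone gave 2.17 (adjusted p = 0.0035). These settings called 7.39% and 27.1% of all tested probes, and over the alternatives the adjusted p reached 0.34. The Cy3 signal of that probe was 891 to 965 on the arrays labelled knockout, against 294 to 320 on those labelled wild type. Grb2, the adaptor that links the receptors to RAS, differed by -0.59 (SE 0.16, adjusted p = 0.089), and by its other probe by -0.62.

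Of 19 tested transcriptional targets and ERK feedback genes 0 were higher and 2 lower, with differences from -1.82 to 0.81 and a median of -0.05. The groups did not overlap for 2 of them with higher and 8 with lower values on the arrays labelled knockout. Of all tested probes 15.6% did so with higher and 14.9% with lower values, and of all tested genes 32.2% in either direction. Fos, an immediate early transcription factor induced by ERK signalling, had log2 ratios of -2.49, -3.28 and -3.78 on the arrays labelled knockout, against -1.28, -1.04 and -1.76 on those labelled wild type. The groups did not overlap, and it fell by 1.82 (SE 0.35, adjusted p = 0.038). Its Cy5 signal was 717, 831 and 468 on the arrays labelled knockout, against 1886, 2315 and 3415 on those labelled wild type. The Fos call held without knockout replicate 1 or wild type replicate 3 and was lost without any other array (adjusted p 0.081 to 0.14). Spry4, a feedback inhibitor of RAS-ERK signalling, fell by 0.79 in the ratio (SE 0.15, adjusted p = 0.035). Its Cy3 signal was 374, 314 and 345 on the arrays labelled knockout, against 106, 104 and 107 on those labelled wild type. In Cy5 alone its difference was 0.25, the other direction, and it was well above background on 1 of 3 arrays labelled wild type. The Spry4 call held only without wild type replicate 3 among the fits that leave out 1 array (adjusted p up to 0.16). The calls of Ptprk, Fos and Spry4 were all lost with the deposited log ratios and with median centring. Fos kept its size there (-1.84 and -1.68), Ptprk differed by -0.83 and -0.85, and Spry4 by -0.27 and -1.34.

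**Figure D5:**
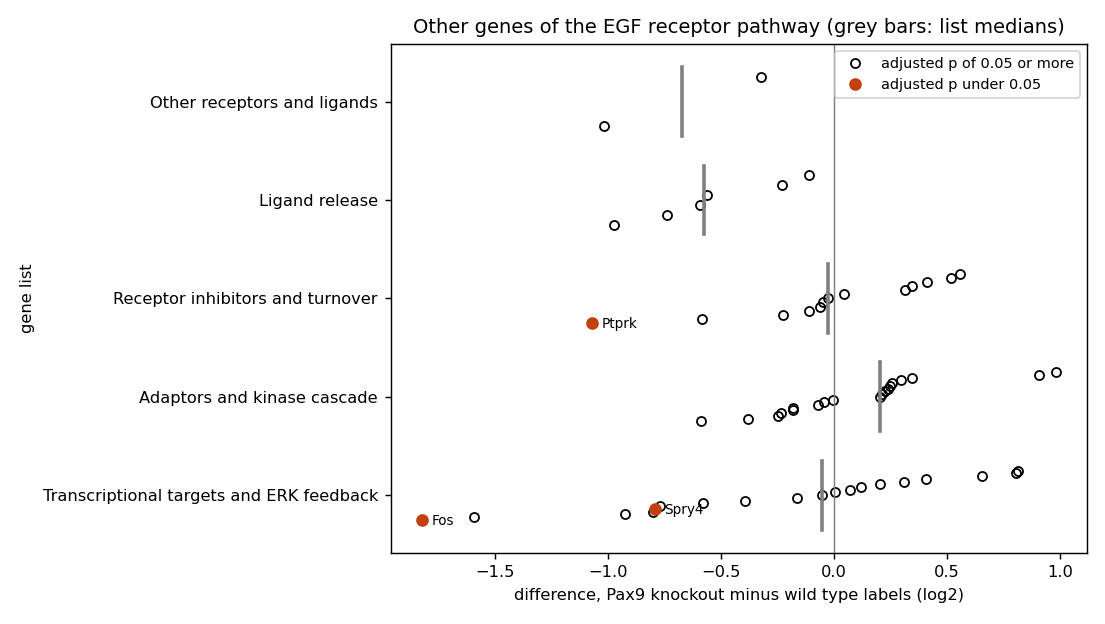
Each point is 1 tested gene of the pathway lists by its brightest probe, the horizontal axis is the difference of arrays labelled knockout minus wild type (log2), and a grey bar marks the median of each list. Filled points passed an adjusted p of 0.05, which were Ptprk, Fos and Spry4. All 6 ligand release genes lie below 0, between -0.97 and -0.11, and none of them passed. Furin, at -0.11, had a difference of 0.30 in Cy5 alone.

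The probes whose profiles over the 6 arrays were most like those of the 3 member probes with the smallest p were found by the root mean square difference of centred log2 ratios. For Ereg A_51_P157223 they were Olfr883 (0.065) and Slc6a20b (0.068). For Hbegf they were Rexo5 (0.027) and Aqp12 (0.031), and for Areg they were Gcnt2 (0.061) and Rc3h1 (0.064).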

How the data were processed

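Each array is 1 sample with esophagus RNA in Cy5 and pooled cell line RNA in Cy3. Scanner files were deposited with linear intensity values of 45018 spots, from array design 014868 and Agilent Feature Extraction 10.7.3.1, per the file headers (version 9.1, per the submitters' processing notes). The files also hold log10 ratios of Cy5 over Cy3 that the authors' program computed. The deposited series matrix holds log2 values that correlated at -0.993 to -0.996 with the scanner log ratios, so they run as Cy3 over Cy5 and were turned round. Their column medians were -0.02 to 0.02, and their centring stays unknown.

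From the intensity columns, normexp background correction (offset 50) and loess within arrays were run, with control spots at weight 0. Outlier spots (55 to 164 per array) were set to missing, and spots of a probe were averaged. Testing was limited to the 30497 of 41174 probes whose Cy5 signal stood well above background on each of the 3 arrays of a group. Differences of knockout minus wild type labels come from lmFit and eBayes of limma 3.58.1 (R 4.3.3), two-sided and with no covariate. Benjamini-Hochberg adjustment ran over all tested probes, and calls were made under 0.05. Group means carry an SD over arrays and differences the moderated SE. Probe symbols were updated through RefSeq GRCm38.p6 by accession for 26918 probes and by name or synonym for 5899, while 8357 kept the files' name. Members were matched by the files' own name. Positions are those of the files, on mm9.

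Samples of a group are biological replicates per the labels, which name no animals. The p-values thus measure only how these samples vary, and the number of arrays limits the precision. Both groups use replicate numbers 1, 2 and 3. Same-numbered arrays deviated together from their group means (correlations of 0.17, 0.51 and 0.34). Arrays with unlike numbers correlated at -0.49 to 0.16, the highest being wild type 1 with knockout 3. Pairing by number is thus not established. Same-numbered arrays also share their position on the slide. A replicate block was fitted as an alternative, beside the deposited log ratios, the series matrix, median centring, Cy5 alone with quantile normalization, 2 other filters, an intensity trend in eBayes, the mean over a gene's probes and each array left out. A slide block was not run, because each slide holds 1 group. Named genes were all members, Pax9, from each list those past the threshold and the 2 with the smallest p, and the 2 nearest profiles of 3 member probes. Members and lists were chosen with earlier results of these data known. On simulated data of this comparison with 30486 probes, the fit recovered 31% of 100 changes of size 1 and 79% of 100 of size 2 (log2), with 8 false calls. The simulated noise was drawn for each probe on its own and held no slide difference. These rates and false calls therefore do not cover a difference between the slides of the real arrays.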

Additional observations from a re-analysis of the deposited data

How the results depend on the processing

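The number of arrays, the coincidence of slide and group and unequal reference signals limit these results. On the whole array 729 probes passed the threshold as higher and 544 as lower under the knockout label. They were 381 and 346 with the deposited log ratios, 374 and 340 with the series matrix, 89 and 50 with median centring, 3900 and 4376 in Cy5 alone, 385 and 314 with all 6 arrays above background, 1327 and 926 with the replicate block, and 22 to 587 and 16 to 602 with 1 array left out. The wide ranges come with fewer samples or other scalings, and the cause was not tested. Member probes numbered 1 and 0. They were 0 higher with median centring, 3 lower in Cy5 alone (Hbegf, Tgfa A_52_P555423 and Erbb3 A_52_P133607), 1 lower with the replicate block (Tgfa A_52_P555423), and 0 to 1 higher and 0 lower with 1 array left out. The named Tgfa and Erbb3 probes entered testing only through the group where their Cy5 signal was higher. Their calls are thus no support for a difference. Pathway genes numbered 0 and 3. They were 0 lower with the deposited log ratios, the series matrix and median centring, 5 higher and 14 lower in Cy5 alone, 3 higher and 6 lower with the replicate block, and 0 higher and 0 to 7 lower with 1 array left out. The mean over probes gave 2 lower. The replicate block changed the call of no other member probe.

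Of the 22 member probes 8 kept their direction under each of the 14 alternatives that gave them a value and 14 did not. The deposited log ratios and the series matrix turned Egfr A_51_P392242 (0.030), A_52_P175190 (-0.057) and A_52_P674338 (-0.28), Erbb2 A_51_P216179 (0.23), Erbb3 A_51_P414813 (-0.64) and A_52_P133607 (1.60), Epgn (-0.66), Ereg A_51_P171215 (0.20) and Egf (-0.085). Median centring turned Egfr A_51_P392242 (0.17), A_52_P106259 (0.34) and A_52_P56471 (0.12), Erbb3 A_51_P414813 (-0.22) and Epgn (-0.19). Cy5 alone turned Egfr A_52_P5855 (0.0023), Erbb2 A_52_P49250 (-0.18), Erbb3 A_51_P488243 (0.053), Nrg1 (0.048) and Spry4 (0.25). With 1 array left out the differences ran from -0.16 to 0.050 for Egfr A_51_P392242, -0.12 to 0.051 for A_52_P106259, -0.0035 to 0.31 for A_52_P175190, -0.30 to 0.069 for A_52_P56471, -0.36 to 0.15 for A_52_P5855, -0.062 to 0.19 for A_52_P674338, -0.055 to 0.23 for Erbb2 A_52_P49250, -0.18 to 0.24 for Erbb3 A_51_P488243, -0.33 to 0.44 for Epgn, -0.63 to 0.49 for Ereg A_51_P171215 and -0.26 to 0.42 for Egf. The cause of the turns was not tested.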
